A study of Mus musculus with 14 samples.

Results

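The clustered protocadherins are cell-surface adhesion proteins encoded by 3 neighbouring gene clusters, alpha, beta and gamma, and they were followed here through 14 RNA-seq libraries of mouse brain. Members were taken by symbol alone, as Pcdha, Pcdhac, Pcdhb, Pcdhga, Pcdhgb or Pcdhgc followed by a number. This gave 58 of the 23375 genes in the deposited table: 14 alpha, 22 beta and 22 gamma members. No measured value entered this symbol rule, but the members were chosen with earlier results of these data known.

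Each cluster member carries its own variable exon with its own promoter, and a neuron transcribes a small, partly random selection of them, with a few C-type members (Pcdhac1, Pcdhac2, Pcdhgc3, Pcdhgc4 and Pcdhgc5) used more widely. In the alpha and gamma clusters every variable exon is spliced to exons shared by the whole cluster, whereas beta members are encoded by their variable exon alone. The proteins bind matching copies on neighbouring cell surfaces, which lets a neurite tell its own branches from those of other neurons, and promoter choice depends on DNA methylation, on the insulator protein CTCF and on cohesin loops to distant enhancers.

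The study deleted imprinting control regions, stretches of DNA methylated on only the maternal or the paternal copy (differentially methylated regions, DMRs), and sequenced poly(A) RNA from brain. KO2 mice carried deletions of the H19-DMR and IG-DMR, KO3 mice these and the Rasgrf1-DMR, and KO7 mice deletions at Gnas and Nespas, at Peg3 and Snrpn, and at Grb10, Igf2r and Kcnq1. Groups were wild type, KO2 and KO7 at E19.5, the end of gestation, and in adults KO2, KO3 and wild-type sets 1 and 2, with 2 libraries in each of these 7 groups. The adults' age, the strain and whether the libraries of a group came from separate animals are not given in the labels, so p-values measure the spread between these libraries, which may be technical. The animals were made with haploid embryonic stem cells. Outside knowledge of the study, which the labels do not state, has KO2 and KO3 animals combining maternal genomes and KO7 animals paternal ones, so deletion and parental origin cannot be told apart. None of the deleted regions lies within a protocadherin cluster.

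Values are FPKM, fragments scaled to transcript length and library size, which allow levels to be compared between genes. The depth of the libraries is unknown, and 12701 to 13398 genes per library reached 1 FPKM. Snap25, a synaptic protein of neurons, was at 92.4 to 1144 FPKM in every library, as the brain label has it. Low values in adult KO3 and set 2 differ from those elsewhere: 9994 genes (42.8%) were listed at 0 in all 4, and the smallest per-gene maximum above 0 there was 1.02 FPKM. Adult KO2 was therefore compared with set 1 and adult KO3 with set 2, which have the same kind of low values. Changes are differences of mean log2(FPKM + 1), which understate the change of low genes, with adjusted p-values from limma over 14322 tested genes and a threshold of 0.05.

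All 58 members had values above 0 in all 10 libraries outside adult KO3 and set 2. Pcdha1, Pcdhb1 and Pcdhb4 were listed at 0 in all 4 libraries of those groups. A further 11 members had at least 1 value below 1 FPKM there without being listed at 0. Of the 58, 56 reached the test (13 alpha, 21 beta and 22 gamma). The others were Pcdha8, at 0.210 to 1.73 FPKM over the 14 libraries, and Pcdhb1, which did not exceed 0.362 FPKM. Members of the alpha cluster share exons with each other, as do those of the gamma cluster, so how the authors' software divided reads among members is uncertain.

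In the alpha cluster Pcdhac2 had the highest level in every library, with a mean of 12.4 FPKM over the 10 libraries outside adult KO3 and set 2. It was followed by Pcdha12 at 5.82, Pcdha5 at 4.98, Pcdha4 at 4.75 and Pcdha2 at 4.43 FPKM, which lie close enough that their order changed between libraries. The beta cluster was flatter, led by Pcdhb17 at 5.98, Pcdhb20 at 4.78, Pcdhb22 at 4.37, Pcdhb7 at 3.46 and Pcdhb9 at 3.44 FPKM. In the gamma cluster Pcdhgc3 averaged 46.6, Pcdhgc4 24.6, Pcdhgc5 17.9, Pcdhga11 8.64 and Pcdhga12 8.53 FPKM, an order that pools both stages: in wild-type E19.5 brain Pcdhgc5 averaged 4.70, below Pcdhga11 at 7.79 and Pcdhga12 at 8.98. The 19 A and B types together made up 50.1 to 55.9% of the gamma sum in the E19.5 libraries, 42.3 to 49.4% in adult KO2 and set 1, and 56.2 to 65.8% in adult KO3 and set 2. Pcdhgc3 was the highest gamma member in 11 of 14 libraries and Pcdhgc5 in the remaining 3.

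**Figure D1:**
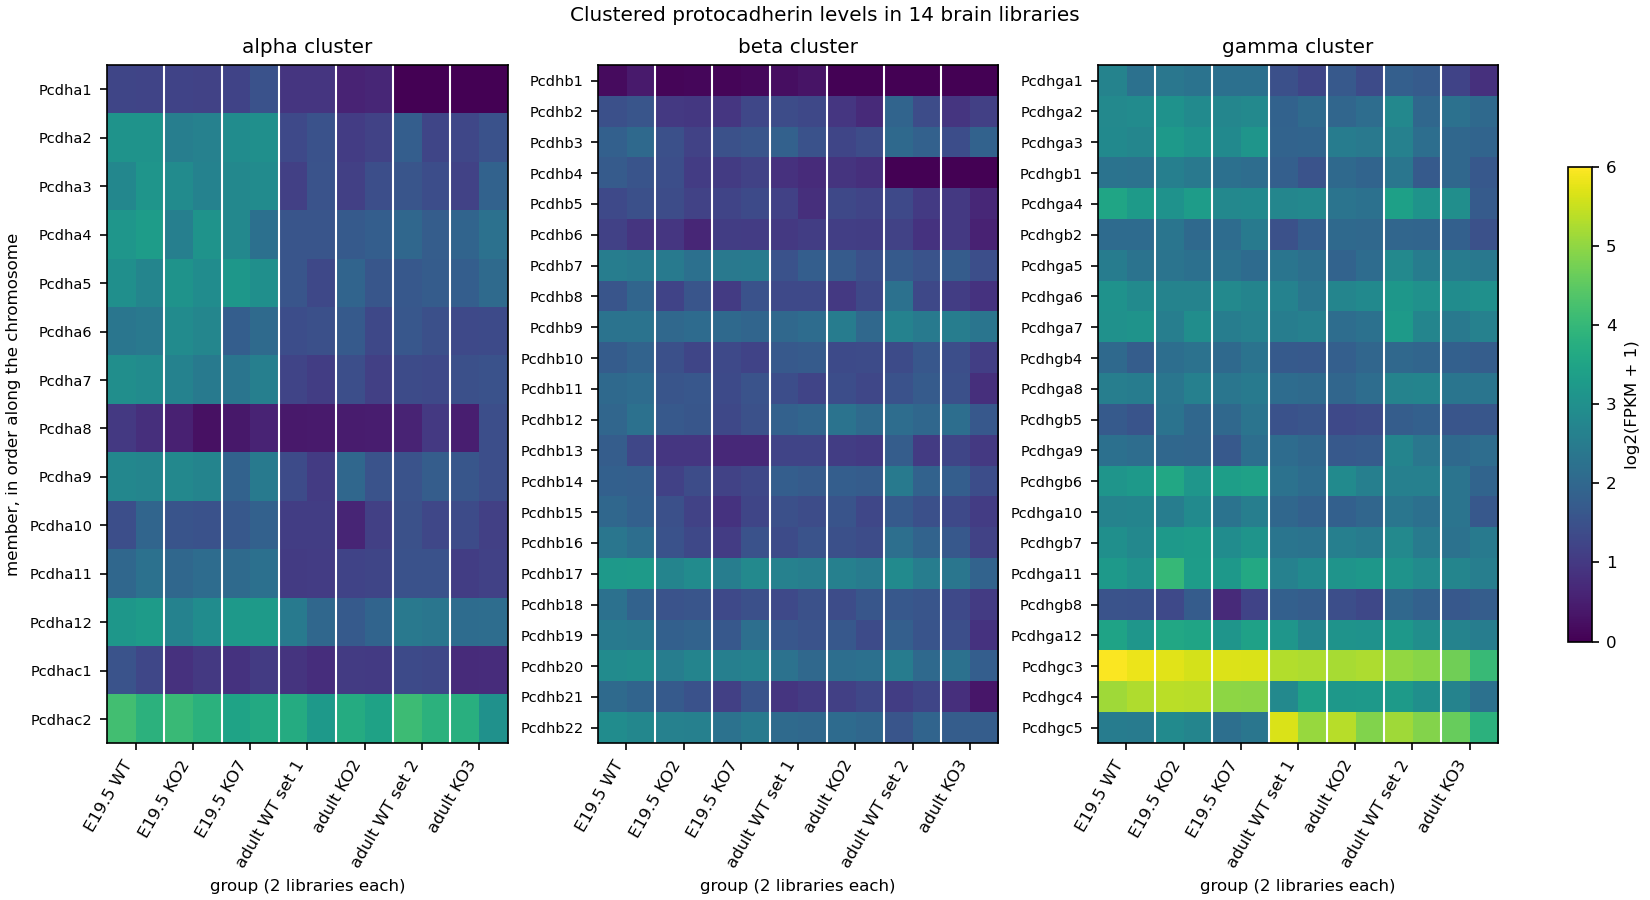
Level of each of the 58 members, log2(FPKM + 1) on the color scale, in the 14 libraries (columns, 2 per group, white lines between groups), with members in their order along the chromosome from top to bottom. Pcdhgc3 and Pcdhac2 are bright throughout, Pcdhgc4 is brighter at E19.5, Pcdhgc5 in adults, and Pcdha1, Pcdhb1 and Pcdhb4 are at 0 in adult KO3 and wild-type set 2.

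Between E19.5 wild-type brain and adult set 1 the clusters moved down together, while the gamma C types Pcdhgc4 and Pcdhgc5 exchanged places. Of the tested members 36 fell and 1 rose in wild type (adult set 1 against E19.5), where 34.1% of all tested genes fell and 21.9% rose. In the alpha cluster 12 of 13 fell, in the beta cluster 11 of 21 and in the gamma cluster 13 of 22. Median changes were -1.07, -0.50 and -0.47, against -0.15 over all tested genes. With the libraries rescaled by median of ratios, the median over all tested genes moved by 0.12 toward higher adult values, and 31 members passed. The fall was smaller against set 2, where the alpha, beta and gamma sums averaged 39.2, 52.1 and 163 FPKM. In set 1 they averaged 29.3, 43.6 and 154, and at E19.5 78.9, 72.9 and 203. With both adult wild-type sets as 1 group 28 members passed, and the alpha and gamma medians were -0.92 and -0.29. Here as elsewhere in bulk tissue, fewer cells of a type and less RNA per cell cannot be told apart.

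The riser was Pcdhgc5, a C type whose promoter lacks the CTCF-bound sequence element of most other members. It was at 4.77 and 4.62 FPKM in wild-type E19.5 brain and at 49.6 and 33.0 in adult set 1. Every adult library of the series, down to 13.6 FPKM in adult KO3, lay above every E19.5 library, where the highest was 6.33. The mean rose 8.79-fold, from 4.70 ± 0.108 to 41.3 ± 11.7 FPKM (SD, n = 2), a log2 change of 2.86 ± 0.25 (SE, adjusted p = 3.9e-06, limma). Pcdhgc4, a neighbouring C type known to be required for the survival of many neurons, went the other way. It stood at 34.2 and 38.1 FPKM in wild-type E19.5 brain and at 6.09 and 9.75 in adult set 1, again without overlap. The mean fell 4.56-fold, from 36.2 ± 2.76 to 7.92 ± 2.59 FPKM (SD, n = 2), a log2 change of -2.09 (adjusted p = 6.24e-06, limma). As a share of the summed gamma level, Pcdhgc5 went from 2.01 to 2.92% across the 6 E19.5 libraries to 14.2 to 30.4% across the 8 adult ones, and Pcdhgc4 from 15.8 to 19.6% to 3.74 to 6.72%.

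Pcdhgc3, which promotes dendrite branching, fell less. Its values were 61.0 and 55.4 FPKM at E19.5 and 38.4 and 37.5 in adult set 1, a log2 change of -0.60 (adjusted p = 0.00938, limma), and the groups did not overlap. Pcdhac2, known for the spacing of serotonergic axons, was at 17.3 and 13.5 FPKM at E19.5 and 11.8 and 8.43 in adult set 1. Its change of -0.57 did not pass (adjusted p = 0.0604, limma). The summed level of the serotonergic markers Tph2, Slc6a4, Fev and Ddc varied within groups, from 3.82 to 39.0 FPKM between the adult KO2 libraries, whose Pcdhac2 values were 11.8 and 10.01. Pcdhac1, the low alpha C type, fell from 1.90 and 1.41 to 0.859 and 0.731 FPKM in adult set 1, a log2 change of -0.56 (adjusted p = 0.00317, limma). In set 2 Pcdhac1 was at 1.54 and 1.46 FPKM and Pcdhac2 at 16.2 and 13.6, both within their E19.5 wild-type ranges. Pcdhgc3, at 31.5 and 29.6 in set 2, stayed below its E19.5 range. Pcdhac1 did not pass with both wild-type sets as 1 group.

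**Figure D2:**
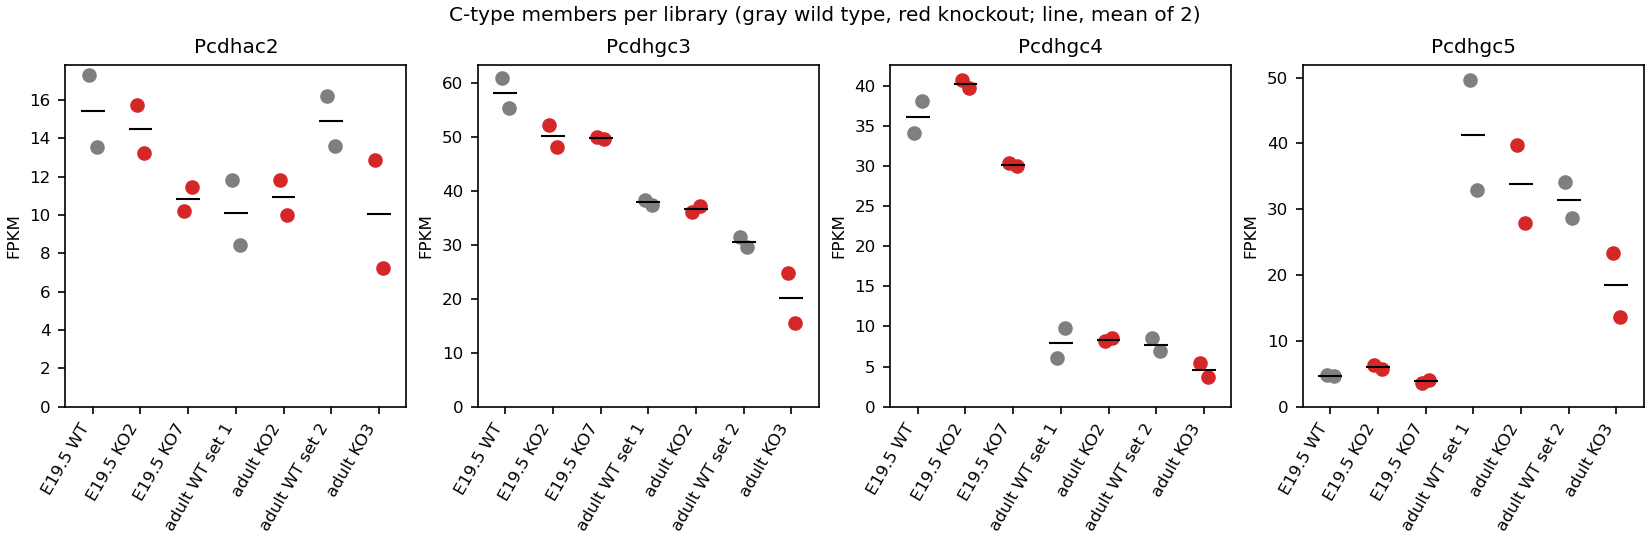
FPKM of Pcdhac2, Pcdhgc3, Pcdhgc4 and Pcdhgc5 in each library (points, wild type gray and knockouts red) with the mean of each group of 2 (line), each panel on its own axis from 0. Pcdhgc4 falls from 30.1 to 40.8 at E19.5 to below 10 FPKM in adults, and Pcdhgc5 rises from at most 6.33 to between 13.6 and 49.6 FPKM.

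The non-C alpha members fell furthest as a group. The sum of Pcdha1 to Pcdha12 was 61.8 ± 2.67 FPKM in wild-type E19.5 brain and 18.4 ± 1.11 in adult set 1 (SD, n = 2), 3.36-fold lower. Pcdha7 went from 6.79 and 6.45 FPKM to 1.34 and 1.13 (log2 change -1.77, adjusted p = 2.42e-06, limma). Pcdha2 went from 7.44 and 7.52 to 1.49 and 1.83 (log2 change -1.67, adjusted p = 1.23e-05, limma). In both, every adult library was below every E19.5 library. Pcdha4 (-1.64) and Pcdha3 (-1.61) fell by similar amounts, but the fall of Pcdha4 was smaller once a composite entry, described below, was added to it. Pcdha12, at 7.99 and 8.84 FPKM and then 4.52 and 3.03, fell by 1.00 on the log2 scale. Pcdha5, at 6.90 and 5.61 and then 1.97 and 1.46, fell by 1.42.

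The A and B types of the gamma cluster, its non-C members, fell by less: their sum was 103.7 ± 7.30 FPKM at E19.5 and 67.0 ± 2.71 in adult set 1 (SD, n = 2), 1.55-fold lower. In set 2 the sum was 103.8 and 83.4 FPKM, which overlaps the 108.8 and 98.5 of wild-type E19.5 brain. Between E19.5 and set 1, Pcdhga1 fell by 1.11 on the log2 scale, from 5.45 and 3.74 to 1.75 and 1.40 FPKM. Pcdhgb6 fell by 0.98, from 7.70 and 8.39 to 3.82 and 3.37. The A types with the highest means over the 10 libraries, Pcdhga11 (8.37 and 7.20, then 5.18 and 6.16 FPKM) and Pcdhga12 (10.1 and 7.88, then 7.94 and 5.66 FPKM), did not pass, at -0.40 and -0.36. In the beta cluster Pcdhb21 changed most, from 3.23 and 2.84 to 0.898 and 1.06 FPKM (log2 change -1.03, adjusted p = 0.000609, limma). Pcdhb19 (-0.86), Pcdhb7 (-0.85) and Pcdhb4 (-0.83) followed. Among the most abundant beta members, Pcdhb17 went from 8.29 and 8.67 to 5.26 and 4.88 FPKM, Pcdhb20 from 6.45 and 6.70 to 3.78 and 3.09, and Pcdhb22 from 6.54 and 5.91 to 3.19 and 3.06, and all of these changes passed, whereas Pcdhb9 was at 3.90 and 3.91 and then 3.09 and 3.37 (log2 change -0.21, adjusted p = 0.29, limma).

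The stage comparison was repeated in KO2 brain, with other libraries than the wild-type ones but the same estimate of the spread. There 27 members fell and 3 rose, where 28.6% of tested genes fell and 20.7% rose. Median changes were -0.99 in alpha and -0.52 in gamma, but -0.06 in beta, against -0.09 over all tested genes. Pcdhgc5 was at 6.33 and 5.64 FPKM at E19.5 and 39.7 and 27.9 in adults, 5.65-fold higher (log2 change 2.30, adjusted p = 2.65e-05, limma). Pcdhgc4 was at 40.8 and 39.7 FPKM and then 8.18 and 8.52, 4.82-fold lower (log2 change -2.14, adjusted p = 7.62e-06, limma). Neither pair of groups overlapped. Beyond Pcdhgc5, the beta members Pcdhb12 (0.55, adjusted p = 0.0241, limma) and Pcdhb14 (0.50, adjusted p = 0.0422, limma) rose.

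Of the stage calls, 25 were shared in the same direction, which is 67.6% of the 37 in wild type and 83.3% of the 30 in KO2, and none was opposite. By cluster the shared calls were 11 alpha, 3 beta and 11 gamma. The beta cluster thus had 11 falling members in wild type but 3 in KO2. Whether the stage change differed by genotype was tested directly as an interaction, and no member passed at adjusted p under 0.05 in limma (0.0349% of tested genes passed as higher and 0.0279% as lower). The smallest adjusted p was 0.152, for Pcdhac1, and 9 of 56 members had an unadjusted p under 0.05, near the 14.8% of all tested genes. The signs were uneven: in 21 of 21 beta members the KO2 effect was higher in adults than at E19.5, as in 55.0% of tested genes, with a beta median of 0.41 against 0.04 over all tested genes. Related lists had this sign too. Medians were 0.415 for CTCF and cohesin genes (2 of 12 below 0), 0.342 for silencing genes (3 of 13) and 0.284 for binding partners (2 of 17). They were 0.275 for classical cadherins (2 of 10), 0.198 for protocadherins outside the clusters (1 of 11) and 0.162 for cleavage enzymes (3 of 7). The interaction shares its E19.5 wild-type libraries with the wild-type stage comparison.

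**Figure D3:**
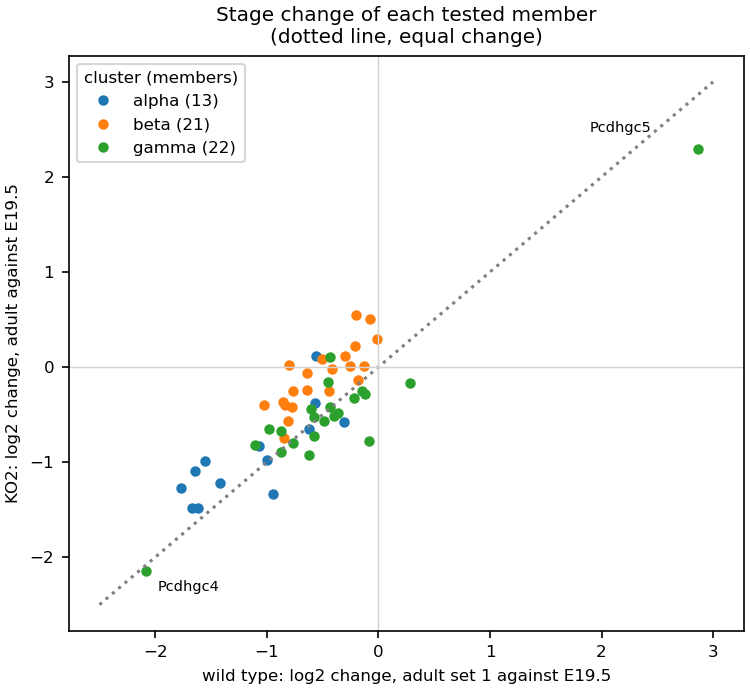
Log2 change between adult and E19.5 brain for each of the 56 tested members, in wild type (x axis) and in KO2 (y axis), colored by cluster, with a dotted line of equal change. Pcdhgc5 and Pcdhgc4 lie at opposite ends, Pcdhgc5 below the line at 2.86 and 2.30 and Pcdhgc4 close to it at -2.09 and -2.14, and the 21 beta members lie above it.

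Lists of related genes can be read against the 34.1% of tested genes that fell and 21.9% that rose in wild type. Of 12 tested genes for CTCF, cohesin and its loading factors, 11 fell, with Wiz (-1.35), Stag1 (-1.13) and Nipbl (-1.09) falling most and a median of -0.75. Of 13 tested genes for silencing and DNA methylation, 11 fell with a median of -1.06, led by the maintenance methyltransferase Dnmt1 (-1.55), its partner Uhrf1 (-1.52) and Tet1 (-1.48). Of 11 tested protocadherins outside the clusters, 5 fell and Pcdh20 rose, and of 10 classical cadherins 8 fell. Among 17 genes for binding partners and signalling 2 rose, Ptk2b (3.14), a kinase held in check by the shared alpha and gamma tail, and Cyfip2 (1.08) of the WAVE complex, while 5 fell, led by Marcks (-2.12). Of 7 genes for cleavage enzymes, 5 fell, among them Mmp14 (-1.07) and Adam10 (-0.81), which cuts gamma members. In KO2, where 28.6% of tested genes fell, 6 of 12 fell for CTCF and cohesin, and 9 of 13 silencing genes fell and 1 rose.

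Cell-type markers moved with stage as well. Summed oligodendrocyte markers were 33.9 and 41.8 FPKM in wild-type E19.5 brain and 2394 and 3139 in adult set 1, with 6 of 6 higher, and Mobp at 0 and 0.149 FPKM at E19.5. Astrocyte markers went from 205 and 245 to 1423 and 1370 FPKM (7 of 7 higher), and microglial markers from 26.6 and 30.1 to 155 and 128 (6 of 6 higher). Neuronal markers had similar sums, 1954 and 2143 against 1994 and 1770 FPKM, with 5 of 7 higher and Tubb3, a tubulin of young neurons, lower (-2.33). Of 6 progenitor markers, 4 were lower, with sums of 81.2 and 82.2 against 49.9 and 51.6 FPKM. The part of these shifts in the protocadherin changes was not tested.

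At E19.5 both knockouts had less beta expression than wild type. The beta sum was 73.6 and 72.3 FPKM in wild-type libraries, 50.0 and 48.6 with KO2 and 41.6 and 50.2 in KO7. Both wild-type libraries stood above every other library of the series, and the KO2 and KO7 libraries overlapped each other. Means were 72.9 ± 0.911, 49.3 ± 1.04 and 45.9 ± 6.02 FPKM (SD, n = 2), so the knockouts held 67.6% and 62.9% of the wild-type level. The alpha sum, at 79.1 and 78.6 FPKM in wild type, was 70.1 and 67.9 with KO2 and 62.0 and 66.5 in KO7, again without overlap. The gamma sum was 209 and 197 FPKM in wild type against 217 and 203 in KO2, which overlap, and 176 and 190 in KO7, which lie below.

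**Figure D4:**
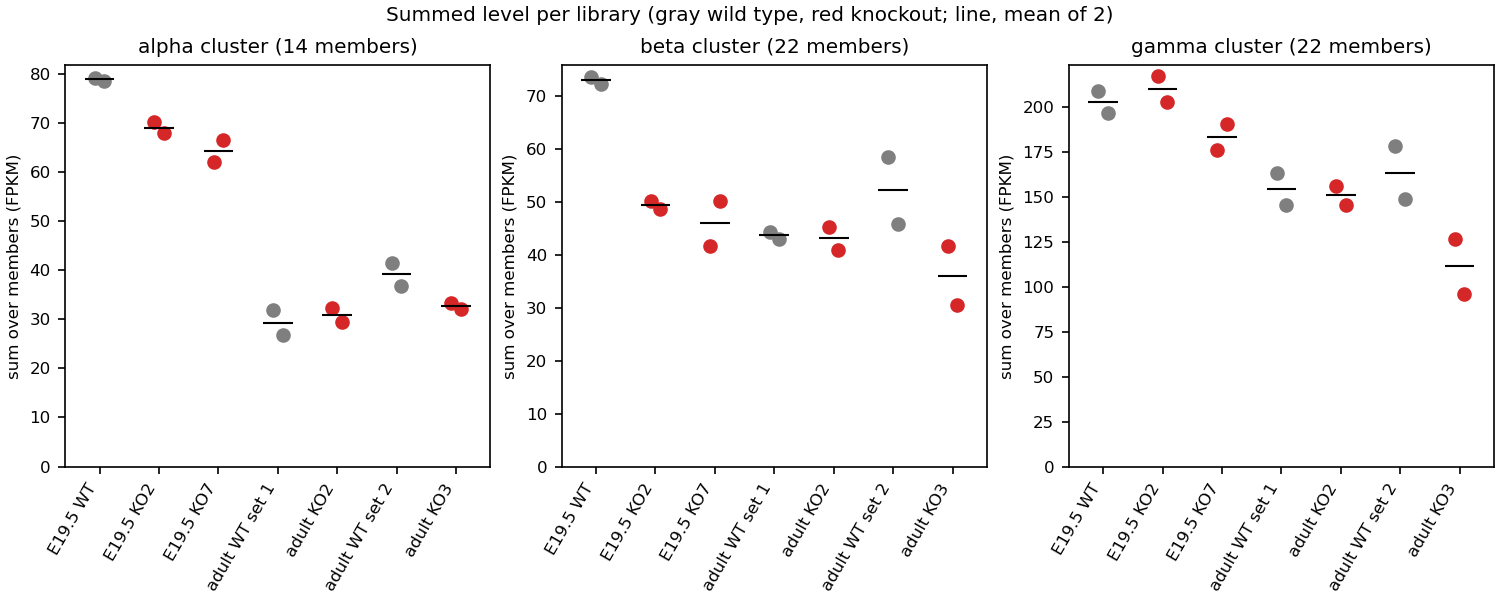
Summed FPKM over the members of each cluster in each library (points, wild type gray and knockouts red), with the mean of each group of 2 (line) and axes from 0. The beta sum is highest in both E19.5 wild-type libraries, at 72.3 and 73.6 FPKM, and the alpha sum falls from between 62.0 and 79.1 FPKM at E19.5 to at most 41.5 in adults.

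In KO2 no single member passed at adjusted p under 0.05 in limma, where 0.88% of tested genes passed as higher and 0.398% as lower, and 21 of 56 members had an unadjusted p under 0.05, as did 16.1% of tested genes. Of the beta members 21 of 21 had a change below 0, where 50.9% of tested genes did, with a median of -0.47 against -0.01 over all tested genes. In 18 of 21 both KO2 libraries lay below both wild-type libraries, where 29.9% of tested genes did so. The alpha median was -0.17, with 11 of 13 members below 0, and the gamma median 0.10, with 14 of 22 above 0, as were 49.1% of tested genes. The gamma B types were above 0 in 7 of 7 members with a median of 0.24, the A types in 5 of 12 with a median of -0.09. The smallest adjusted p was that of Pcdhb16 (0.0692, limma).

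In KO7 4 members passed, all beta and all lower, where 1.43% of tested genes fell and 3.02% rose. Pcdhb16 was at 4.10 and 3.48 FPKM in wild-type libraries, 1.10 and 1.86 in KO7 and 1.86 and 1.48 in KO2. Both knockouts lay below both wild-type libraries. The change was -0.97 ± 0.20 in KO7 (SE, adjusted p = 0.0226, limma) and -0.84 in KO2. Pcdhb15 was at 3.01 and 2.59 FPKM in wild type, 0.825 and 1.39 in KO7 and 1.77 and 1.26 in KO2, with a change of -0.86 in KO7 (adjusted p = 0.0238, limma) and -0.60 in KO2.

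Pcdhb12 and Pcdhb18 had the same order of groups. Pcdhb12 was at 2.96 and 3.70 FPKM in wild type, 1.46 and 1.83 in KO7 and 2.18 and 2.06 in KO2, with changes of -0.71 (adjusted p = 0.0472, limma) and -0.47. Pcdhb18 was at 3.68 and 2.69 FPKM, 1.52 and 1.75, and 1.90 and 1.99, with changes of -0.66 (adjusted p = 0.0408, limma) and -0.50. In both members no knockout library reached a wild-type value. Beta members as a whole were below 0 in 20 of 21 in KO7, where 49.3% of tested genes were, with a median of -0.53 against 0.00 over all tested genes, and in 19 of 21 the groups did not overlap, where 29.6% of tested genes were lower without overlap. The alpha and gamma medians were -0.13 and -0.16, and the B types again lay higher (median 0.19) than the A types (-0.22).

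The knockout comparisons at E19.5 share their wild-type libraries, so they are not independent of each other. The wild-type stage comparison and the interaction use the same E19.5 wild-type libraries. The beta stage fall, the lower beta level in the knockouts and the beta signs of the interaction are therefore not separate results. The call count in KO7 also rested on individual libraries and on the spread estimated from other groups: it was 0 without KO7 replicate 1 or without wild-type replicate 1, 1 without wild-type replicate 2, and 14 (11 beta members with Pcdha4, Pcdhga4 and Pcdhgb5) without either adult KO3 library. It was 2 without KO7 replicate 2 or either library of adult set 1, 0 with both wild-type sets as 1 group, and 1, Pcdhb16, in a fit of only the 4 libraries compared. Of the members named here, Pcdhgb5 was higher in KO7 (log2 change 0.54 with all libraries) and the others were lower. The beta median ranged from -0.66 to -0.41 over the libraries left out.

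Pcdhb7, among the more abundant beta members, was at 4.82 and 4.47 FPKM in wild-type libraries, 4.51 and 3.62 with KO2 and 4.38 and 4.44 with KO7. The KO2 range overlapped wild type, and the KO7 libraries lay just below it. Pcdhb17, Pcdhb20 and Pcdhb22 were below wild type in all 4 knockout libraries, at 4.81 to 6.42, 4.78 to 5.48 and 3.80 to 5.18 FPKM. Pcdhb9 was at 3.05 and 3.27 with KO2 and 3.13 and 2.88 with KO7, also below the 3.90 and 3.91 of wild type.

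No C type passed at E19.5 in KO2 or KO7. Pcdhgc3 was at 52.2 and 48.2 FPKM in KO2 and 50.1 and 49.6 in KO7, below wild type in all 4 libraries, with changes of -0.21 and -0.22 (adjusted p = 0.591 and 0.483, limma). Pcdhgc4 was higher in KO2, at 40.8 and 39.7 FPKM, and lower in KO7, at 30.4 and 30.1, and Pcdhgc5 likewise at 6.33 and 5.64 against 3.54 and 4.10 FPKM, but none of these changes passed. Pcdhac2 was at 15.7 and 13.3 FPKM in KO2, which overlaps wild type, and 10.2 and 11.5 in KO7, which lies below. Pcdhac1 was at 0.813 and 0.984 FPKM in KO2 and 0.836 and 1.06 in KO7, below the 1.90 and 1.41 of wild type, with adjusted p-values of 0.11 and 0.0786 (limma).

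The table also holds a composite entry of Pcdha4 with the gamma cluster that is not counted as a member. Pcdha4 itself was at 7.83 and 8.90 FPKM in wild-type E19.5 brain, 5.01 and 7.49 with KO2 and 5.96 and 3.64 in KO7, a change of -0.72 in KO7 (adjusted p = 0.0858, limma). The composite entry was at 0.000815 and 0.0597, at 2.61 and 0.00141, and at 1.94 and 4.07 FPKM. The libraries low in Pcdha4 were high in the composite, and the sum lay between 7.49 and 8.96 FPKM in all 6 libraries. In adult set 1 the composite entry was at 0.957 and 0.944 FPKM. There the sum was 2.94 and 2.95 FPKM, against 1.99 and 2.00 for Pcdha4 alone, so the size of its wild-type stage fall depended on this entry.

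Sex and cell content differed between these groups too. Eif2s3y, on the Y chromosome, was at 22.6 and 25.03 FPKM in KO7 and at most 0.0274 elsewhere. Xist, expressed in females, was at 0.0159 and 0.0402 in KO7, 1.498 and 84.0 in KO2 and 117 and 106 in wild type. Sex and genotype therefore cannot be told apart in KO7. KO2 replicate 1, the KO2 library with the lower Xist, had Eif2s3y at 0, so it showed neither pattern. In KO2 2 of 6 oligodendrocyte markers were higher, Mbp among them, with sums of 167 and 92.9 against 33.9 and 41.8 FPKM, as were 1 of 7 astrocyte markers (Aldoc), with sums of 491 and 457 against 205 and 245, and 2 of 5 erythroid ones, Slc4a1 among them, with sums of 405 and 738 against 95.0 and 520. In KO7, 2 of 6 endothelial markers were higher, with sums of 125 and 113 against 66.7 and 70.1 FPKM, and 2 of 5 erythroid ones, with sums of 2641 and 2478. The astrocyte marker Gja1 and the progenitor marker Top2a were higher too, each alone in its list of 7 and 6. Neuronal markers had 0 of 7 past the threshold in either comparison. The part of these differences in the beta result was not tested.

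Genes around and acting on the clusters seldom passed at E19.5. None of 6 tested genes beside the clusters (Hars, Hars2, Zmat2, Taf7, Hdac3 and Rell2) and none of 12 for CTCF and cohesin passed in KO2 or KO7. The CTCF and cohesin genes were below 0 in 10 of 12 in KO2 (median -0.22) and 11 of 12 in KO7 (median -0.15). Of 13 silencing genes, Uhrf1 was higher in KO7 (0.73, adjusted p = 0.0119, limma), although 11 of the 13 were below 0 there (median -0.21). In KO2 10 of the 13 were below 0 (median -0.13). Of 11 protocadherins outside the clusters, Pcdh9 (-0.70) and Pcdh15 (-0.79) were lower in KO7 and none passed in KO2. In each knockout 8 of these 11 were below 0, with medians of -0.45 in KO7 and -0.18 in KO2. Classical cadherins were below 0 in 8 of 10 in KO7 (median -0.32) and 9 of 10 in KO2 (median -0.17). The classical cadherin Cdh1 was lower in KO2 (-0.70) and higher in KO7 (0.59), and of 17 binding partners Abi2 of the WAVE complex was lower in KO7 (-0.62).

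**Figure D5:**
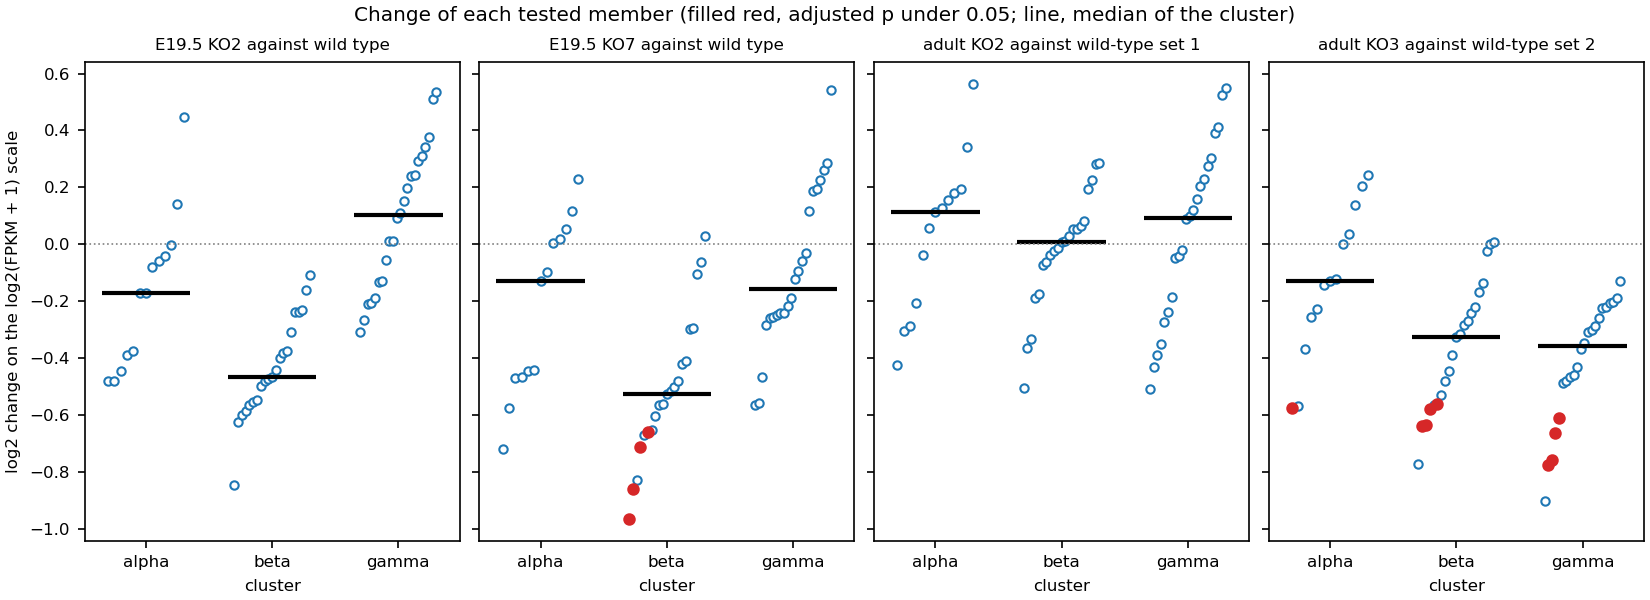
Log2 change of each tested member (points) by cluster in the 4 knockout comparisons, filled red where adjusted p was under 0.05, with the median of each cluster (line). Beta members lie below 0 at E19.5 in KO2 and, except Pcdhb6, in KO7. In adult KO2 the medians lie near 0, and in adult KO3 22 of 22 gamma members lie below 0.

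In adult KO2 brain no member passed in limma against wild-type set 1 (8 of 56 had an unadjusted p under 0.05, as did 7.34% of tested genes, and the smallest adjusted p was 0.413, for Pcdhga3), where 0.105% of tested genes were higher and 0.0489% lower. The sums were 32.2 and 29.5 FPKM in KO2 against 31.9 and 26.8 in wild type for alpha, 45.2 and 40.9 against 44.3 and 42.9 for beta, and 156 and 146 against 163 and 145 for gamma. All 3 pairs of ranges overlapped. Medians were 0.11, 0.01 and 0.09, against 0.04 over all tested genes, and with both wild-type sets as 1 group they turned to -0.04, -0.09 and -0.03. Pcdhb16, lowest of the beta members at E19.5 relative to wild type, was at 1.77 and 1.63 FPKM against 1.61 and 1.88. Among the listed genes, 1 changed: Mmp14, a membrane metalloprotease, was lower (-0.91, adjusted p = 0.0272, limma).

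In adult KO3 brain 9 members were lower than in wild-type set 2 and none was higher, where 8.2% of tested genes were lower and 13.9% higher. They were 1 alpha, 4 beta and 4 gamma members. Of the gamma members 22 of 22 had a change below 0, where 48.5% of tested genes did, and in 19 the groups did not overlap, where 26.1% of tested genes were lower without overlap. Medians were -0.13 in alpha, -0.33 in beta and -0.36 in gamma, against 0.00 over all tested genes. With both wild-type sets as 1 group the gamma median was -0.17.

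The largest summed difference was in gamma, at 126 and 95.8 FPKM in KO3 against 178 and 148 in set 2. In set 1, which differs in its low values, the gamma sum was 163 and 145 FPKM. The A and B types alone summed to 72.8 and 63.0 FPKM in KO3, 103.8 and 83.4 in set 2 and 68.9 and 65.0 in set 1. Pcdhgc3 was at 24.8 and 15.5 FPKM in KO3 against 31.5 and 29.6 in set 2 (log2 change -0.61, adjusted p = 0.0287, limma). Pcdhgc5 was at 23.4 and 13.6 FPKM against 34.1 and 28.6 (log2 change -0.77, adjusted p = 0.0481, limma). In both, KO3 replicate 2 was the lowest library and replicate 1 the next.

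Pcdhgc4 was at 5.42 and 3.69 FPKM in KO3 against 8.57 and 6.89 (log2 change -0.66, adjusted p = 0.0365, limma). Pcdhga1 was at 1.29 and 0.779 FPKM against 2.53 and 2.30 (log2 change -0.76, adjusted p = 0.0195, limma). Pcdhac1 was at 0.668 and 0.686 FPKM against 1.54 and 1.46 (log2 change -0.58, adjusted p = 0.0163, limma). None of these groups overlapped. Among beta members, Pcdhb16 was at 2.16 and 1.25 FPKM against 3.59 and 2.77 (-0.64), Pcdhb2 at 0.898 and 1.19 against 2.81 and 1.63 (-0.63), Pcdhb21 at 0.763 and 0.283 against 1.12 and 1.38 (-0.58), and Pcdhb17 at 4.10 and 2.78 against 6.28 and 4.78 (-0.56), with adjusted p-values of 0.0348 to 0.044 (limma). Pcdhac2, at 12.9 and 7.22 FPKM against 16.2 and 13.6, did not pass (-0.57, adjusted p = 0.1, limma).

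These calls rested on the KO3 replicates. Replicate 2 had the lower beta and gamma sums, and the KO3 pair agreed least of the 7 groups (r = 0.964 across genes, against 0.979 to 0.983 elsewhere in the series). Without replicate 2 no member passed, without replicate 1 the count was 17, and without set 2 replicate 1 none passed. Without set 2 replicate 2 it was 4, and 3 to 8 without a library of the other groups. In a fit of only the 4 libraries compared no member passed, with both wild-type sets as 1 group 4 did, without a filter on low values 2 did, and with median-of-ratios scaling 18 did. Over the libraries left out in turn, the medians ranged from -0.25 to -0.03 in alpha, -0.50 to -0.16 in beta and -0.51 to -0.24 in gamma. The beta median was highest without KO3 replicate 2, and those of alpha and gamma without set 2 replicate 1.

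Other genes moved widely in KO3. Of 12 CTCF and cohesin genes, Ctcf (0.41), Smc3 (0.40) and Smc1a (0.38) were higher and Pds5a lower (-0.96), while 8 of the 12 were below 0 (median -0.19). Of 13 silencing genes 3 were lower, among them Tet2 (-0.56) and Setdb1 (-0.57), and 9 were below 0 (median -0.36). Pcdh1 was the only one of 11 protocadherins outside the clusters to pass, and was lower (-1.66), at 14.6 and 5.29 FPKM against 33.9 and 27.2. All 11 had a change below 0, with a median of -0.41, where 48.5% of tested genes did. Of 10 classical cadherins 9 were below 0, with a median of -0.39. A shift below 0 was therefore not particular to the clusters. Zmat2, a gene beside the clusters, was higher (0.63). Summed erythroid markers were 965 and 1008 FPKM against 117 and 60.8, with 2 of 5 higher and Slc4a1 listed at 0 in all 4 libraries, and of 7 neuronal markers Rbfox3 and Nefm were higher and Syt1 lower, with sums of 2237 and 2328 against 2042 and 1922. The astrocyte marker S100b (1 of 7) and the microglial marker Aif1 (1 of 6) were higher and the endothelial marker Kdr (1 of 6) was lower, with sums of 1324 and 1325 against 1228 and 1088, 86.0 and 119 against 86.2 and 64.4, and 45.2 and 61.6 against 45.8 and 46.4 FPKM. The part of these differences in the protocadherin calls was not tested.

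The adult wild-type sets also differed from each other. Against set 1, set 2 had 4 members higher and 2 lower, where 6.84% of tested genes were higher and 14% lower, and 19 of 22 gamma members had a change above 0 (44.1% of tested genes did) with a median of 0.35. Those higher were Pcdhga8, at 5.43 and 5.53 FPKM against 3.34 and 3.24 (0.60, adjusted p = 0.00861, limma), Pcdhga6, at 7.98 and 7.15 against 5.37 and 4.16 (0.58), Pcdhac1, at 1.54 and 1.46 against 0.859 and 0.731 (0.48), and Pcdha11, at 1.83 and 1.83 against 1.06 and 1.09 (0.45). The lower calls, Pcdha1 (0.914 and 0.890 FPKM in set 1) and Pcdhb4 (0.812 and 0.671), rest on values listed at 0 in set 2, so their direction cannot be told apart from the handling of low values. With median-of-ratios scaling 9 members were higher and 2 lower, and with quantile scaling 8 were higher and none lower. Without set 1 replicate 2, Pcdha1 and Pcdhb4 alone remained, and without either adult KO3 library 14 members passed. Microglial markers were lower in set 2 in 3 of 6, with sums of 86.2 and 64.4 against 155 and 128 FPKM. Of 6 progenitor markers 2 were higher and 4 lower, with sums of 36.5 and 36.8 against 49.9 and 51.6 FPKM, and of 12 CTCF and cohesin genes 6 were higher, led by Nipbl (0.98), Smc3 (0.76) and Wapal (0.67). The part of these differences in the member calls was not tested.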

How the data were processed

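Poly(A) RNA-seq of 14 mouse brain libraries was analysed from FPKM values as deposited by the authors in a single matrix. Software listed in the submitters' processing notes, with no role for each, is Cufflinks 2.2.1, TopHat2 2.1.1 and CASAVA, and the genome build is mm9. How reads shared by several members were divided is not given in the sources used here. Groups came from sample titles. Depth is unknown, so no counting interval was computed. Values were transformed to log2(FPKM + 1) and genes that reached 1 FPKM in 2 or more libraries were kept (14322 of 23375, with 2 entries naming no gene left out). A limma model (version 3.58.1, R 4.3.3) with 7 group means, an intensity trend and 7 residual degrees of freedom gave 2-sided p-values, with Benjamini-Hochberg adjustment over all tested genes and a threshold of 0.05. The script was tested on simulated data.

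Any member may be named. Values in every library are given for the 5 most abundant members of each cluster, the C types, and up to 4 members per cluster and comparison past the threshold by size of change, and lists name up to 3 genes past it. Genes named beyond this rule were chosen after their values were seen. A few list genes are not reported here. The members and the gene lists were chosen with earlier results of these data known. All 58 symbols were found in RefSeq's genes on GRCm38.p6, used for names and order only. Alternatives were other pseudocounts, filters and scalings, pooled wild-type sets, only the libraries compared, values under 1 FPKM set to 0, a replicate block and each library left out. A crossed block for E19.5 KO2 and a fit with the composite Pcdha4 entry added to Pcdha4 were chosen after seeing the data.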

Additional observations from a re-analysis of the deposited data

How the results depend on the processing

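With 2 libraries per group and unknown depth, counts of members past the threshold and some cluster medians depended on single libraries. Leaving out each of the 14 libraries in turn gave these ranges of members called: 0 to 1 for E19.5 KO2, 0 to 14 for E19.5 KO7, 0 in every case for adult KO2, 0 to 17 for adult KO3, 27 to 39 for stage in wild type (27 without E19.5 wild type replicate 1), 21 to 32 for stage in KO2, 2 to 14 between the wild-type sets and 0 in every case for the interaction. Pcdhgc4 and Pcdhgc5 passed in both stage comparisons in 25 of 25 settings, but the knockout calls did not. In KO7 Pcdhb16 passed in 21, Pcdhb15 in 19, Pcdhb18 in 11 and Pcdhb12 in 6. In adult KO3 Pcdhga1 and Pcdhgc3 passed in 20, Pcdhac1 in 19, Pcdhb2 in 16, Pcdhb17 and Pcdhgc4 in 11, Pcdhgc5 in 10, Pcdhb16 in 9 and Pcdhb21 in 8. Medians for alpha, beta and gamma ranged from -0.343 to -0.0472, -0.477 to -0.443 and 0.0842 to 0.185 in E19.5 KO2. In E19.5 KO7 they ranged from -0.27 to -0.0897, -0.659 to -0.414 and -0.182 to -0.094. In adult KO3 they ranged from -0.25 to -0.0326, -0.5 to -0.16 and -0.509 to -0.241. Between the sets they ranged from 0.179 to 0.327, 0.0306 to 0.264 and 0.251 to 0.441. The alpha median ranged from -1.22 to -0.957 for stage in wild type and from -1.11 to -0.85 in KO2.

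A pseudocount of 0.1 moved the beta median to -0.619 in E19.5 KO2, -0.741 in KO7, -0.599 in adult KO3, -0.707 for wild-type stage and 0.588 for the interaction, and the alpha median to -1.55 and -1.23 for stage in wild type and KO2 and to 0.375 between the sets. A pseudocount of 5, which shrinks low values, gave 1 member in E19.5 KO2 (Pcdhb16) and 11 in KO7. Its medians were -0.0808 for alpha and -0.204 for beta in E19.5 KO2, -0.253 for beta in KO7, -0.0543, -0.143 and -0.219 for alpha, beta and gamma in adult KO3, and -0.617, -0.223 and -0.279 for wild-type stage. They were -0.537 and -0.35 for alpha and gamma in KO2 stage, 0.108 and 0.178 for alpha and gamma between the sets, and 0.0956 and 0.219 for alpha and beta in the interaction.

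With no filter, adult KO3 had 2 members and the KO7 alpha median was -0.266. With a mean of at least 1 FPKM required, the alpha median was -0.286 in KO7 and -1.24 for wild-type stage. Median-of-ratios scaling gave 18 members in adult KO3 and 11 between the sets, and wild-type stage medians of -0.967 and -0.351 for alpha and gamma. Quantile scaling gave 1 member in E19.5 KO2 and 10 in KO7, adult KO3 medians of -0.0419 and -0.202 for alpha and beta, and 0.557 for beta in the interaction. With values under 1 FPKM set to 0, 1 member (Pcdhac1) passed in E19.5 KO2 and in the interaction and 2 in KO7. Medians were then -0.562 for beta in adult KO3, -1.4 and -0.642 for alpha and beta in wild-type stage and -1.1 for alpha in KO2 stage.

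With both wild-type sets as 1 group, 0 members passed in KO7 and 4 in adult KO3, and the adult KO2 medians of alpha and gamma turned to -0.0432 and -0.0305. The medians were -0.173 for gamma in adult KO3, -0.919 and -0.291 for alpha and gamma in wild-type stage, and 0.0736 and -0.242 for alpha and gamma in the interaction. Fits of only the libraries compared gave 1 member in KO7 and 0 in adult KO3. The adult KO2 beta median, near 0, took either sign, from -0.0863 upward. The causes were not tested.

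Replicate numbers did not pair the libraries: between groups, replicate differences correlated at -0.333 to 0.233 across genes. A replicate block gave 0 members in E19.5 KO2, 3 in KO7, 0 in adult KO2, 9 in adult KO3, 36 and 31 for stage in wild type and KO2, 6 between the sets and 0 for the interaction. With the E19.5 KO2 numbers crossed, at a correlation of -0.158 with wild type, the counts were 0 for E19.5 KO2 and 31 for KO2 stage. Adding the composite entry to Pcdha4 changed no count, though the wild-type stage fall of Pcdha4 was smaller with it.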
